A study of Mus musculus with 6 samples.

Results

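The genes described here belong to the p53 pathway. They are Trp53, which encodes p53, its inhibitors Mdm2 and Mdm4, and the p53 targets Cdkn1a, Ccng1 and Phlda3, and they are 6 of the 22380 protein-coding genes in the mm9 annotation GENCODE vM1. The members were chosen by name, with earlier results of these data known. A binding peak was given to a gene when its centre lay inside the gene's interval and its reads ran on the strand opposite to the gene, which is the orientation of LACE-seq reads in these libraries. The orientation was checked on peaks found in both C2C12 libraries. Those kept had a sequence that occurs once in the genome and no run of 10 or more G nearby. Of those in protein-coding genes on a single strand, 14418 lay opposite to the strand of their gene and 302 on the same strand. The share opposite was 97.9% (95% Clopper-Pearson interval 97.7 to 98.2). By this rule 108 of the 178779 peaks in all 6 libraries fell in the 6 genes.

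LACE-seq finds the places where a protein was crosslinked to RNA by UV light, here the places of YTHDC1. Cells were irradiated, YTHDC1 was pulled down with an antibody together with its RNA, and reverse transcription stopped at the crosslinked base. The study used it on ASC-48h, which are mouse satellite cells (muscle stem cells) activated by 48 h in culture, and on C2C12, a mouse myoblast line. ASC-48h had 4 libraries, from biological replicates B1 and B2 that were each run as technical replicates T1 and T2, and C2C12 had 2. All 6 are labelled as wild type and none is an input or IgG control. The GEO labels call the C2C12 libraries biological replicates whereas the text of the paper calls them technical, so they are named here replicate 1 and replicate 2 and the spread between them may be technical. By the study's methods, satellite cells were sorted from hindlimb muscle by a fluorescent reporter under the control of Pax7, and the age and sex of the mice are not given in the sources used here.

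p53 is a transcription factor that halts the cell cycle or triggers cell death when DNA is damaged. In unstressed cells it is kept low by Mdm2, a ubiquitin ligase, and by Mdm4, a relative of Mdm2 that binds and inhibits p53. Among the genes that p53 switches on are Cdkn1a, whose product p21 blocks cyclin-dependent kinases, Ccng1, which encodes cyclin G1, Phlda3, which encodes a small protein that inhibits Akt, and Mdm2 itself, which closes a feedback loop. YTHDC1 is the reader of N6-methyladenosine (m6A) in the nucleus and is known for roles in splicing and export of the RNAs that it binds. The m6A mark usually lies in a short motif around GGAC.

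Each value below is the number of reads per bin of 20 nt as the authors deposited it, and the mean over bins where a peak is wider. Sequences are read from the mm9 genome on the strand of the RNA, 5′ to 3′, with 5 nt on either side of the bin. The first set holds the single-bin shared peak with the highest mean number of reads in each gene that had one, so that the bound RNA can be seen, and capitals mark the 20-nt bin.

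Phlda3, 3'UTR, chr1:137663421-137663440, plus strand: atcatTTTATCGACATGCCCCCCCTctccc
Cdkn1a, coding exon, chr17:29235501-29235520, plus strand: gaactTTGACTTCGTCACGGAGACGccgct
Mdm4, intron, chr1:134903761-134903780, minus strand: aagccTCTTCCTGAATCTCTCTTCAtgtca
Mdm2, coding exon, chr10:117127421-117127440, minus strand: aatgcCATCGAACCATGTGTGATCTgccag
Trp53, intron, chr11:69394541-69394560, plus strand: tgattTCTTTTTTTTTCCAGCCGCTtctcg

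None of these bins holds GGAC. The second set holds the shared peaks of Phlda3 that lie across a splice site, with the bases of the exon in capitals.

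Phlda3, end of exon 1, chr1:137663461-137663480, plus strand: CCAGAAGACATGTCAGgtgagtcccagagc
Phlda3, start of exon 2, chr1:137665041-137665060, plus strand: cactgttcttgctttccagCTTCTCTGTCC

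The third set holds the shared bins whose printed stretch carries GGAC, which is in capitals.

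Cdkn1a, coding exon, chr17:29235621-29235640, plus strand: aggGGACaagaggcccagtacttcctctgc
Phlda3, 5'UTR, chr1:137662961-137662980, plus strand: gccggcgctgtagagccgGGACagccggga

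Peaks in the p53 pathway genes were found almost entirely in C2C12. The C2C12 libraries held 48 peaks in replicate 1 and 55 in replicate 2, against 0 peaks in both ASC libraries of B1, 1 in B2 T1 and 4 in B2 T2. The whole lists also differed, with 60540 and 71992 peaks in C2C12 and from 7925 to 19448 in the ASC libraries, with the most in B2 T2. Per 10000 peaks on the strand of the RNA in protein-coding genes, the members took 11.4 and 11.8 in C2C12, 0 in both libraries of B1, 3.56 in B2 T1 and 5.71 in B2 T2. The lowest number of reads that a library listed was 6 in both C2C12 libraries, 5 in 3 ASC libraries and 4 in ASC B2 T2, so a gene without a peak may still have carried fewer reads than this. The cell types differ in the number of cells used and in unknown library depth, so their counts stand side by side and were not compared. A peak count follows both the amount of an RNA and its crosslinking to YTHDC1, and RNA amount was not measured in these files. In such bulk samples fewer cells with an RNA and less RNA per cell cannot be told apart.

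**Figure D1:**
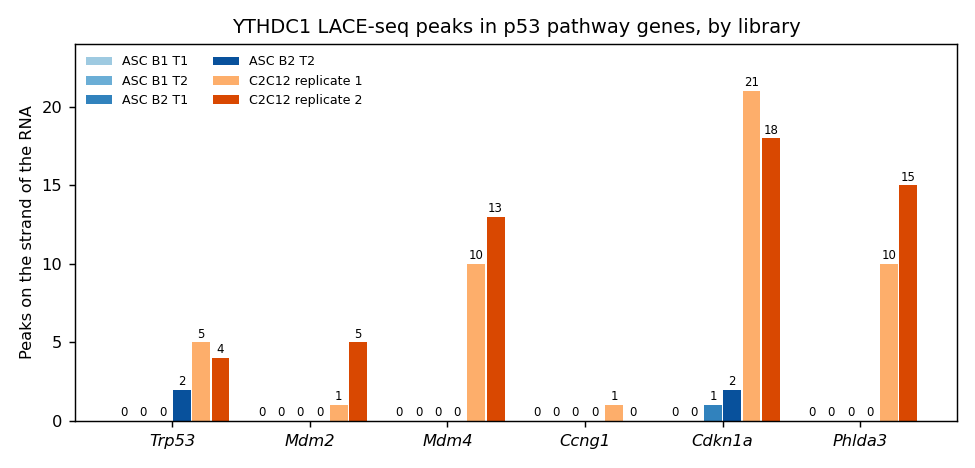
Number of LACE-seq peaks on the strand of the RNA (y axis) in each of the 6 p53 pathway genes, with 1 bar per library and the count above it. Cdkn1a, Phlda3 and Mdm4 had between 10 and 21 peaks in each C2C12 library, and only Cdkn1a and Trp53 had any in ASC.

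A C2C12 peak was counted as shared when a peak of replicate 1 met one of replicate 2 on the same strand, with 1 nt or more in common. Of the 6 genes, 5 had a shared peak, beside 21.8% of all protein-coding genes (4886 of 22380). All 6 had a peak in at least 1 C2C12 library, beside 41.7% of protein-coding genes. In ASC, 2 of the 6 had a peak in at least 1 library, beside 25.0%. Longer or more abundant RNAs have more chance of a peak, and the members were chosen with earlier results of these data known. These shares therefore describe 6 named genes and no more. The shared peaks were unevenly spread over the members, with 9 each in Cdkn1a and Phlda3, 5 in Mdm4, 1 each in Mdm2 and Trp53 and 0 in Ccng1. Among the 4886 genes with a shared peak the median was 2, and the count of 9 stood at percentile 89.2.

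The cells were checked against marker genes. Of 8 muscle genes 5 had a C2C12 shared peak, among them Des with 10 and Itga7 with 11, and Myog had no peak in any library. Of 4 fibroblast genes 3 had one, with 33 in Col3a1. The endothelial gene Pecam1 had 1 peak in every library, and Cdh5, Kdr and the 3 blood genes had 0. Myod1 had 5 and 3 peaks in the C2C12 libraries, and none was shared. In ASC the muscle genes had 1, 10, 10 and 28 peaks and the fibroblast genes 0, 0, 2 and 2. In C2C12 the 8 muscle genes had 62 and 56 peaks and the 4 fibroblast genes 66 and 70. Pax7, the defining gene of satellite cells, had 1, 1, 2 and 10 peaks in the ASC libraries and 0 and 1 in C2C12.

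Phlda3 carried the strongest peak and the densest set of peaks. The gene lies on chr1 between 137662696 and 137665713 on the plus strand (ENSMUSG00000041801.5) and is 3018 nt long. Its transcript Phlda3-001 has 2 exons, and the whole coding sequence is in exon 1, so that the single intron lies in the 3'UTR. Replicate 1 had 10 peaks and replicate 2 had 15, of which 9 were shared, or 2.98 per kb. This density stood at percentile 96.7 among genes with a shared peak, whose median was 0.0677 per kb, although a short gene reaches a high density with few peaks. All 9 shared bins have a sequence that occurs once in mm9. None of the 4 ASC libraries listed a peak in Phlda3.

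The highest bin in any member gene was the Phlda3 bin at chr1:137663421-137663440, with 22 reads in replicate 1 and 22 in replicate 2. It began 18 nt past the last base of the stop codon and ended 31 nt before the end of exon 1. The next was in the coding sequence at chr1:137663261-137663280, with 12 reads in each library. The third was in exon 2, in the 3'UTR at chr1:137665281-137665300, with 10 and 12 reads (mean 11 ± 1.41 SD, n = 2). In both libraries the bin past the stop codon thus stood well above every other bin of the gene.

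Shared peaks also lay on both splice sites of the Phlda3 intron, as the second set of sequences shows. The bin across the end of exon 1 had 9 and 8 reads (8.5 ± 0.707 SD, n = 2). The bin across the start of exon 2 had 6 and 10 reads (8.0 ± 2.83 SD, n = 2). Both bins hold bases of the intron and of an exon, and a 20-nt bin does not show on which side of the splice site its reads fell. Within the 1583 nt of the intron replicate 1 listed 1 bin by its centre, the one at the start of exon 2, and replicate 2 listed that bin and 2 more with 6 reads each. The 2 shared bins of the 5'UTR had 8 and 6 reads and 9 and 6 reads. Per kb, exons of Phlda3 held 5.13 shared peaks and its intron 0.685.

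**Figure D2:**
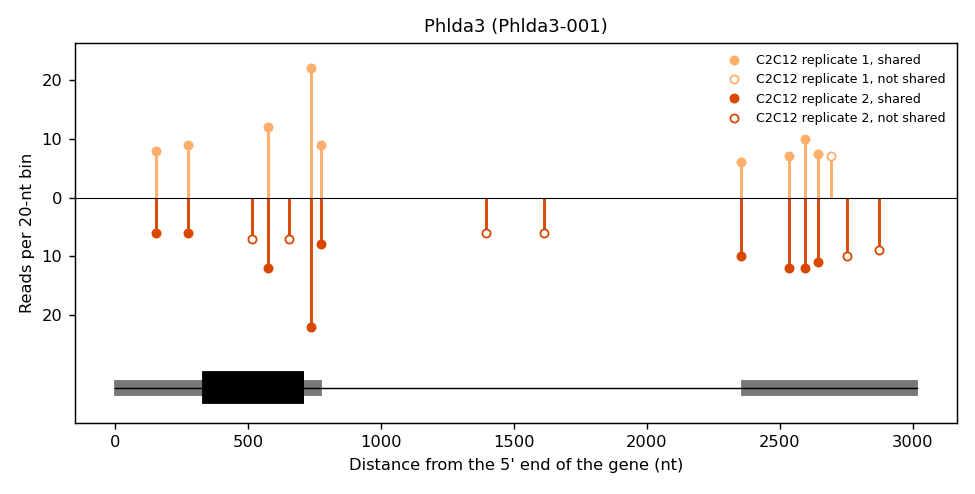
Reads per 20-nt bin (y axis) of each C2C12 peak in Phlda3 by distance from the 5' end of the gene in nt (x axis), with replicate 1 drawn upward and replicate 2 downward. Filled points are shared and open points are in 1 library, black blocks are coding sequence and grey blocks are UTRs. The bin past the stop codon had 22 reads in both libraries, and the remaining bins had 12 or fewer.

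Cdkn1a carried as many shared peaks as Phlda3 over a longer gene. It lies on chr17 between 29227924 and 29237667 on the plus strand (ENSMUSG00000023067.7) and is 9744 nt long. Replicate 1 had 21 peaks and replicate 2 had 18, over 30 different bins, of which 9 were shared and 21 were in 1 library only. The density was 0.924 shared peaks per kb, at percentile 90.3, with 2.25 per kb of exon and 0.532 per kb of intron. The shared peaks lay in introns (4), coding exons (3) and the 3'UTR (2).

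The highest shared bins of Cdkn1a were in exon 2 of Cdkn1a-001, which is 441 nt long and holds most of the coding sequence of p21. The bin at chr17:29235501-29235520 had 11 and 13 reads (12 ± 1.41 SD, n = 2). The bin at chr17:29235381-29235400 had 9 and 11 reads (10 ± 1.41 SD, n = 2). The exon held 7 bins in replicate 1 and 3 in replicate 2, and all 3 of the latter were shared. One unshared bin, at chr17:29235441-29235460, had 11 reads in replicate 1 and no peak in replicate 2, so a bin as high as the shared ones was listed by 1 library only.

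In the introns of Cdkn1a the highest shared bin was chr17:29234341-29234360, with 11 and 8 reads (9.5 ± 2.12 SD, n = 2). Its 20-nt sequence occurs again 36 nt upstream in the same intron, and no peak was listed at that copy. Intron 1 of Cdkn1a-001, of 4535 nt, held 13 bins, of which 3 were shared. Another shared bin, chr17:29230701-29230720, with 7 and 11 reads, runs across the annotated start of Cdkn1a-001 at 29230717, and is intronic only for transcripts that start farther upstream. In the 3'UTR a shared bin began 43 nt past the stop codon with 6 and 8 reads (7.0 ± 1.41 SD, n = 2), and another lay 1143 nt past it with 6 and 12 reads (9.0 ± 4.24 SD, n = 2). This last bin had the widest gap between the libraries among the shared bins of Cdkn1a.

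The shared peaks of Mdm4 all lay in introns, which are most of its length. The gene lies on chr1 between 134886422 and 134921943 on the minus strand (ENSMUSG00000054387.6) and is 35522 nt long. Replicate 1 had 10 peaks and replicate 2 had 13, over 18 bins, and 5 were shared, at 0.141 per kb of gene and 0.156 per kb of intron. Intron 6 of Mdm4-202, between 134901299 and 134905713, held 9 of the 18 bins and 4 of the 5 shared ones, although it makes up 4415 nt of the gene. It is followed by exon 7, of 68 nt, which is known as an alternative exon whose skipping gives a short form of the protein. Exon 7 itself had no peak in either library, and the nearest shared bin ended 2143 nt before it. A bin 71 nt past exon 7 was listed by replicate 2 only, with 7 reads. A link between these bins and the splicing of exon 7 was not tested. A further 4 bins lay in the 3'UTR, of which none was shared.

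The highest shared bin of Mdm4, chr1:134903761-134903780, had 6 and 12 reads (9.0 ± 4.24 SD, n = 2). The bin at chr1:134903441-134903460 had 6 and 10 reads (8.0 ± 2.83 SD, n = 2), and chr1:134904241-134904280 had 6 in each library. These 3 have sequences that occur once in mm9. The other shared bins, chr1:134905341-134905360 with 7 and 8 reads and chr1:134918941-134918960 with 7 and 7, have 20-nt sequences with 19 and 10 copies in the genome, and the authors placed a read at up to 10 positions. One more bin of intron 6, seen in replicate 1 only with 7 reads, has a copy on chr15 at which replicate 1 also listed a peak, with 6 reads.

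**Figure D3:**
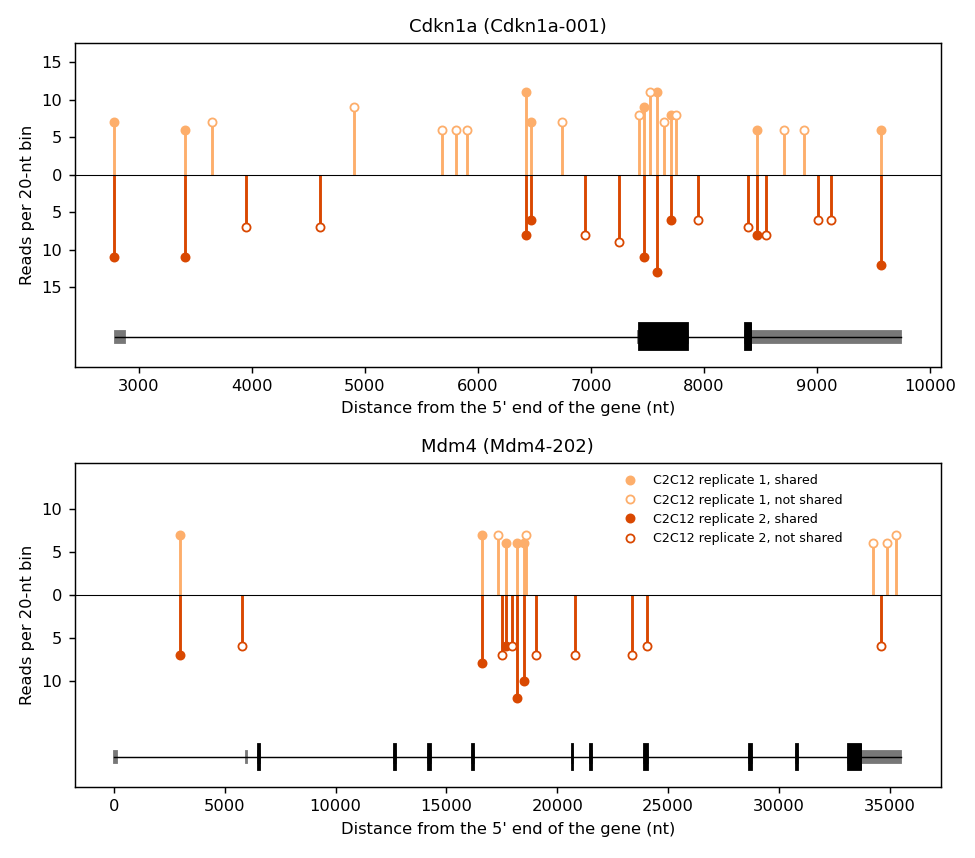
Reads per 20-nt bin (y axis) of each C2C12 peak in Cdkn1a (top) and Mdm4 (bottom) by distance from the 5' end of the gene in nt (x axis), with replicate 1 upward and replicate 2 downward. Filled points are shared, open points are in 1 library, black blocks are coding sequence and grey blocks are UTRs of the longest coding transcript. Bins crowd in the long coding exon of Cdkn1a, with up to 13 reads, and in intron 6 of Mdm4, with up to 12.

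Mdm2 had 1 shared peak. The gene lies on chr10 between 117125944 and 117147814 on the minus strand (ENSMUSG00000020184.8). The shared bin was in the coding part of its last exon, began 174 nt before the last base of the stop codon and had 6 and 11 reads (8.5 ± 3.54 SD, n = 2). It was the only Mdm2 peak of replicate 1, whereas replicate 2 had 4 more in introns, with 7, 8, 6 and 8 reads. Of these 4, 3 have 20-nt sequences that occur 29, 145 and 12 times in mm9. Replicate 1 listed fewer peaks for all genes on the minus strand, with 0.778 peaks for each peak in a gene on the plus strand, against 0.875 in replicate 2. The part of this in the difference between 1 and 5 peaks was not tested.

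Trp53 itself had 1 shared peak, in intron 1. The gene lies on chr11 between 69393861 and 69405375 on the plus strand (ENSMUSG00000059552.6). The shared bin had 6 and 8 reads (7.0 ± 1.41 SD, n = 2), and its sequence, printed above, is a run of T followed by CCAG. Over both C2C12 libraries Trp53 had 8 bins, of which 4 were in intron 1, 3 in coding exons and 1 in the 3'UTR. The 3'UTR bin began 8 nt past the stop codon and had 7 reads in replicate 1 and no peak in replicate 2.

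All 3 coding bins of Trp53 have a second copy in mm9, on chr17 between 54559024 and 54559809, in or beside the annotated pseudogene Trp53-ps. They had 8 and 6 reads in replicate 2 and 7 in replicate 1, and none was shared. No C2C12 library listed a peak at the copies. The intron bins of Trp53 each have a sequence that occurs once in mm9.

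Ccng1 had no shared peak. It lies on chr11 between 40562054 and 40568813 on the minus strand (ENSMUSG00000020326.7). Replicate 1 listed 1 bin in a coding exon, chr11:40567461-40567480, with 6 reads, which is the lowest number that this library lists. Replicate 2 and the ASC libraries listed none.

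Satellite cells yielded 5 bins in the 6 genes, all from biological replicate B2, and no bin was listed by more than 1 ASC library. In Cdkn1a the 3'UTR bin chr17:29236921-29236940 had 10 reads in B2 T1, and C2C12 replicate 2 listed it with 6. A second 3'UTR bin of Cdkn1a, chr17:29236461-29236480, had 4 reads in B2 T2 and 8 in C2C12 replicate 2. The bin chr17:29231241-29231260, in intron 1 of Cdkn1a, had 4 reads in B2 T2 and was in no other library. These bins lay in the last exon and intron 1, and the long coding exon of Cdkn1a, which was bound in C2C12, had no ASC peak.

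In Trp53 the B2 T2 library listed 2 bins. The bin chr11:69401821-69401840 had 6 reads and lay 26 nt before the start of exon 5 of the longest coding transcript, inside an intron of the coding transcripts and an exon of the noncoding transcript Trp53-003. The bin chr11:69401941-69401960, in the coding part of exon 5, had 4 reads, and C2C12 replicate 2 listed it with 6. B2 T2 also listed 4 reads at the copy of this bin in Trp53-ps, so that these reads cannot be told apart between the gene and the pseudogene.

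Of the 5 ASC bins, 3 were listed by C2C12 replicate 2 and 0 by replicate 1. As a background, single-copy peaks in protein-coding genes without a run of 10 or more G nearby were taken. Of those of B2 T2, 11.1% were found in C2C12 replicate 1 and 11.9% in replicate 2. For B2 T1 the shares were 16.6% and 17.8%. The 5 ASC bins were not filtered by copies, and the Trp53 bin among the 3 has a second copy. With 5 bins at 4 to 10 reads, of which 3 were at the lowest number that B2 T2 lists, the ASC peaks of the p53 pathway genes rest on few reads.

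How often a peak of these genes was found again depended on its reads, as it did for all genes. Of the 34 member peaks of replicate 1 with 6 or 7 reads, 15 were found in replicate 2 (44.1%, beside 32.6% for protein-coding genes). At 8 or 9 reads 5 of 8 were found (62.5%, beside 56.8%), and at 10 or more 5 of 6 (83.3%, beside 79.8%). In the other direction the member shares lay below those of all protein-coding genes for the lower 2 classes. Of the peaks of replicate 2, 6 of 28 with 6 or 7 reads were found in replicate 1 (21.4%, beside 28.6%), 5 of 12 with 8 or 9 reads (41.7%, beside 53.2%) and 14 of 15 with 10 or more (93.3%, beside 77.7%). The 25 shared bins had a median of 8.5 reads, and 15 were higher in replicate 2, 6 higher in replicate 1 and 4 equal. Bins with more reads were thus found again more often, and 53 of the 78 bins listed in C2C12 were in a single C2C12 library.

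**Figure D4:**
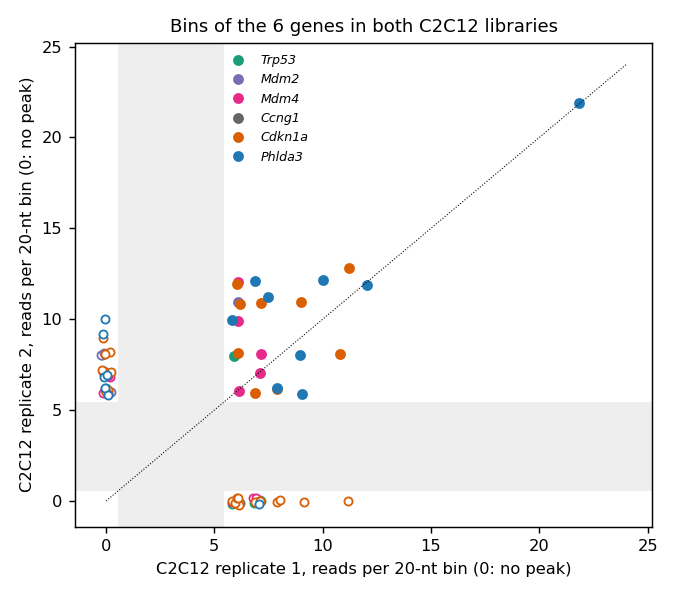
Reads per 20-nt bin of each bin of the 6 genes in C2C12 replicate 1 (x axis) and replicate 2 (y axis), with 0 for no peak. Filled points are shared and open points are in 1 library, colours are genes, the dotted line is equality, the grey bands mark values below the lowest number of reads listed, and points are shifted slightly so that they can be told apart. The Phlda3 bin at 22 reads lies apart from the rest, and of the shared bins 21 have a mean of 10 reads or fewer.

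By gene part, the 25 shared peaks lay in introns (11, 44.0%), 3'UTRs (7, 28.0%), coding exons (5, 20%) and 5'UTRs (2, 8.0%). Over the 18834 shared peaks that lay in 1 protein-coding gene, the shares were 32.3%, 19.6%, 42.0% and 4.66%. The 95% Clopper-Pearson intervals of the members were 24.4 to 65.1 for introns, 12.1 to 49.4 for 3'UTRs, 6.83 to 40.7 for coding exons and 0.984 to 26.0 for 5'UTRs. They cover counting error and treat peaks of 1 gene as independent, which these are not, since Mdm4 gave 5 of the 11 intronic peaks and Phlda3 gave 5 of the 7 in 3'UTRs. The length of the parts also differs between the genes, and introns make up 32011 of the 35522 nt of Mdm4. Per kb of intron Mdm4 had fewer shared peaks (0.156) than Cdkn1a (0.532) or Phlda3 (0.685), and these differences were not tested. The only shared intronic peak of Phlda3 is the bin across the start of exon 2. A shared intronic bin of Cdkn1a runs across the start of Cdkn1a-001.

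**Figure D5:**
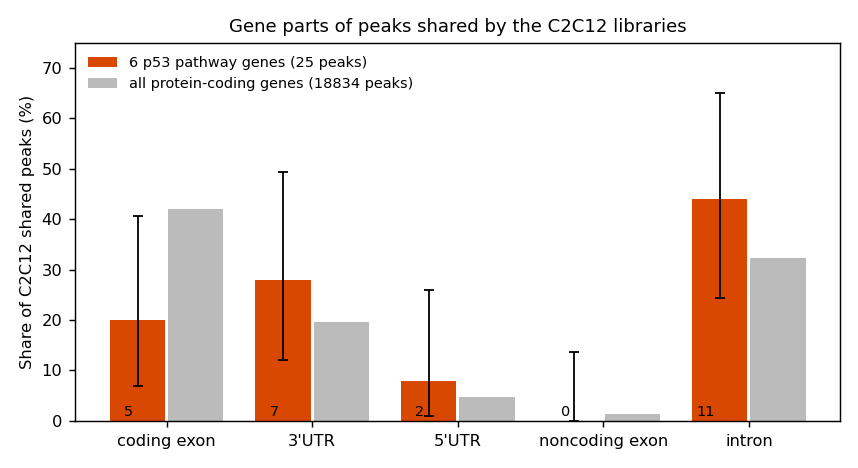
Share of C2C12 shared peaks in % (y axis) by gene part, for the 6 p53 pathway genes and for all protein-coding genes. Numbers at the foot of the bars count the members' peaks, and error bars are 95% Clopper-Pearson intervals over peaks. The coding share of the members was 20% against 42.0% over all genes.

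GGAC, searched on the strand of the RNA in the bin and 20 nt on either side, was present at 4 of the 25 shared peaks (16%, interval 4.54 to 36.1), beside 20% of shared peaks in all protein-coding genes. Within 50 nt it was present at 10 of 25 (40.0%, interval 21.1 to 61.3), beside 37.1%. The 4 were a coding and a 3'UTR bin of Cdkn1a and a 5'UTR and a 3'UTR bin of Phlda3. The Phlda3 bin with 22 reads had none within 20 nt. A run of 10 or more G was searched in the same window on the strand of the reads, where it stands for C in the RNA. No bin of the 6 genes had one.

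The wider p53 pathway was described with a list of 61 genes, chosen with earlier results of these data known. Of these, 28 had a C2C12 shared peak (45.9%, beside 21.8% of protein-coding genes), 108 peaks in all. Among cell cycle genes 8 of 13 had one, among apoptosis genes 8 of 17, among repair and metabolism genes 7 of 17 and among regulators and sensors 5 of 14. The median of the 61 was 0 shared peaks. The gene with the most was Thbs1, encoding thrombospondin-1, with 35 shared peaks of 45 and 57 in the C2C12 libraries, and 0, 0, 2 and 3 peaks in ASC. It was bound in coding exons (19 peaks) and the 3'UTR (12).

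Next came Ep300, an acetyltransferase that coactivates p53, with 12 shared peaks, 8 of them coding. Btg2, an antiproliferative p53 target, had 8, of which 6 lay in the 3'UTR, and none in ASC. Hipk2, a kinase that phosphorylates p53, had 7.

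In ASC, Usp7 and Cdk2 of the wider list each had a peak shared by both biological replicates. Each lay by a run of G on the strand of the reads, in a sequence with copies elsewhere. The Usp7 intron peak had 6 reads in each of the 6 libraries and 308 copies of its sequence. The Cdk2 intron peak had 10, 12, 10 and 11 reads in ASC and 10 and 12 in C2C12, with 2 copies. The 6 genes themselves had no such peak.

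Genes most like the members in their peak pattern were sought by the Euclidean distance of log2(1 + peaks) over the 6 libraries and 4 gene parts, among genes of 0.5 to 2 times the member's length. For Mdm4 the nearest of 4263 genes were Lpin2 at 0.83, Cul4a at 1.05 and Ube2r2 at 1.16. For Cdkn1a the nearest of 2718 included Ptbp1 at 2.18 and Mmp14 at 2.55. For Phlda3 the nearest of 1021 were 2310036O22Rik at 1.85, Socs3 at 2.13 and Cited2 at 2.28. The distances of Cdkn1a and Phlda3 were larger than those of Mdm4, and fewer genes were searched for them. The part of this in the distances was not tested. Beside the 9 shared peaks of Cdkn1a, Ptbp1 had 8 and Mmp14 had 14. Beside the 9 of Phlda3, 2310036O22Rik, Socs3 and Cited2 had 6, 6 and 11.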

How the data were processed

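Reads of the 6 LACE-seq libraries were processed by the authors, who trimmed them with Cutadapt 1.15, removed those matching pre-rRNA, aligned the rest to mm9 with Bowtie 1.2.3 (up to 2 mismatches, up to 10 positions per read) and called peaks in each library with Piranha 1.2.1 in 20-nt bins at a p threshold of 0.001. These peak settings are stated for ASCs, and those for C2C12 and the handling of duplicate reads are not given in the sources used here. The deposited signal of a peak is its reads per bin, without normalization, and the deposited p-value comes from Piranha's fit to the library and is unadjusted. Reads placed at several positions can add to peaks at copies of a sequence. Library depth is unknown, since only peaks are listed.

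The members and the gene lists were chosen with earlier results of these data known. Peaks were assigned by their centre to mm9 genes of GENCODE vM1, in the order coding exon (with the stop codon), 3'UTR, 5'UTR, noncoding exon and intron over all transcripts. The number of copies counts exact matches of the 20-nt sequence on either strand of NCBIM37. Percentiles are among the 4886 genes with a shared peak. Values per kb of exon or intron take the exons of all transcripts of a gene together. The text names all 6 members, in each the 3 shared peaks with the most reads or every shared peak where there were 5 or fewer, every ASC peak, the 5 genes of the wider list with the most shared peaks, those shared in ASC, and the 3 genes most like each member. Some genes that this rule picks are not reported here. No significance test was run, because conditions were not compared. Intervals are exact at the 95% level and cover counting error only. Python 3.11.15, numpy 2.4.6, pandas 2.3.3, scipy 1.17.1, pysam 0.24.0 and matplotlib 3.10.9 were used. The overlap and gene part steps were tested on 5000 simulated peaks and gave the known answer in 7 of 7 checks. The alternatives were the overlap, p threshold, gene interval, strand, transcript, copy number, lowest reads, GGAC window and the libraries used.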

Additional observations from a re-analysis of the deposited data

Results flagged for a closer look

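The count of Trp53 peaks in ASC was far from the others in 1 library, with 2 peaks in B2 T2 and 0 in the remaining 3. Chance alone marks about 1 in 20 groups of 4 in this way. B2 T2 lists the most peaks of the ASC libraries and the lowest reads per bin, and the part of this in the count was not tested.

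One peak lay outside the rule for members, on the strand of the gene instead of the opposite one. It is in an intron of Mdm2, at chr10:117141361-117141380, and was listed in C2C12 replicate 2 with 6 reads. Its 20-nt sequence occurs 41042 times in mm9, and no other library listed it.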

How the results depend on the processing

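The shared peaks of the 6 genes numbered from 22 to 26 instead of 25 when the overlap, the gene interval, the strand or the copy number was changed, and Mdm4 kept 3 of 5 for sequences that occur once. They fell with stricter lists. At p of at most 0.0001, at p of at most 0.00001 and with at least 8 reads in both libraries, in that order, the shared peaks were 7, 4 and 7 instead of 25, in 2, 2 and 2 genes instead of 5 (Cdkn1a and Phlda3 each time). By part they were 3, 2 and 3 in coding exons instead of 5, 3, 2 and 3 in 3'UTRs instead of 7, 0, 0 and 0 in 5'UTRs instead of 2, and 1, 0 and 1 in introns instead of 11. The share with GGAC was 0%, 0% and 0% of these 7, 4 and 7 peaks, instead of 16%. No such share was computed over all genes for these stricter lists. With a window of 50 nt the share was 40.0%, beside 37.1% for shared peaks of all protein-coding genes. The wider list gave 12, 5 and 13 genes instead of 28. The share of protein-coding genes with a shared peak was 11.4%, 6.18% and 11.8% instead of 21.8%, 22.5% with genes extended by 1000 nt, 25.4% on either strand and 16.7% for sequences that occur once.

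With either C2C12 library alone, where no sharing is asked for, the peaks of the 6 genes ranged from 48 to 55, in coding exons from 10 to 11, in 3'UTRs from 13 to 14 and in introns from 21 to 28, and the share of genes from 33.1% to 36.9%. The share with GGAC was 16.4% without replicate 1 and 25.0% without replicate 2. The 20% given for all protein-coding genes is over shared peaks, and no such share was computed for a single library. The ASC peaks were 2 instead of 5 at p of at most 0.0001 and 0 when both technical replicates had to hold them, and ranged from 1 (without B2 T2) to 5 when 1 library was left out. Since a C2C12 replicate lists no peak under 6 reads, weaker binding cannot be seen in these lists. No paired analysis was possible because no result comes from a test and the ASC and C2C12 libraries share no pairing.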
